A study of Mus musculus with 10 samples.

Results

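The interleukin and JAK-STAT genes described here are the rows of the deposited table whose gene symbol begins with Il and a digit or with Socs and a digit, is Jak1, Jak2, Jak3 or Tyk2, or begins with Stat3, Stat4, Stat5 or Stat6, and whose mean level was above 0. By name, 100 of the 25232 rows matched, and 91 of them were above 0, among 20973 rows above 0 in all. The other 9 (Il31, Il22ra2, Il22, Il1f8, Il1f10, Il9, Il1f5, Il10 and Il1f6) were listed at 0. The rule used no measured change.

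RNA of the spinal cord was sequenced from 5 wild type (WT) and 5 SOD1 G93A female mice of 90 days, the WT animals being littermates. SOD1 G93A mice (B6.Cg-Tg(SOD1-G93A)1Gur/J) express mutant human SOD1 from a high-copy transgene on a background labelled C57BL/6 (C57BL/6J in the methods) and lose motor neurons, as a model of amyotrophic lateral sclerosis. The tissue is labelled spinal cord, and lumbar cord in the methods. The study asked which genes, those of lipid metabolism above all, differ between the genotypes at an early symptomatic stage. Of the table's columns only the base mean was used here. It is the authors' mean over all 10 libraries of read counts divided by each library's size factor, so it pools both genotypes and has no SD, and no comparison of WT with SOD1 G93A mice, and no spread between animals, was computed here. Base means summed to 22158933 over all rows.

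Interleukins are small secreted proteins by which immune, glial and barrier cells signal to each other. Many of them bind receptors that have no kinase activity of their own, and the bound Janus kinases (JAK) phosphorylate STAT transcription factors, which enter the nucleus. Some SOCS proteins are induced by this signal and shut it off, while interleukins of the IL-1 and IL-17 families signal instead through adaptor proteins and NF-kB. In the spinal cord microglia, astrocytes, neurons and vessels can all take part.

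By their medians, the kinases lay above the middle of all genes, the shared receptor chains and the STAT genes near it, and the ligands far below it. Of the 91 genes, 54 had a base mean of at least 10 (59.3%, against 75.9% of all genes above 0), and 32 had a base mean of at least 100 (35.2%, against 59.9%). The median was 20.65 for the members and 247.1 for all genes above 0. Ranked among all genes, the median member was at percentile 28.5, where 50 is the middle. The median percentile was 70.5 for the kinases, 54.6 for the shared chains, 52.5 for the STAT genes, 43.2 for the SOCS genes, 29.2 for the receptor chains and 18.9 for the ligands. Single genes spread widely around these medians. The lowest kinase, Jak3, was at percentile 51.56, the STAT genes ran from 14.83 (Stat4) to 89.9 (Stat3) and the shared chains from 33.21 (Il2rg) to 95.04 (Il6st). The medians by role ran from 3.971 for the 30 ligands and 22.95 for the 29 receptor chains to 345.4 for the 6 chains that several receptors share and 851.7 for the 4 kinases. The 7 SOCS genes were all above 10, with a median of 137.8, and 4 of the 5 STAT genes were above 10, with a median of 292.2. The members together held 0.132% of the summed base means, and the 5 highest held 59.7% of that.

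**Figure D1:**
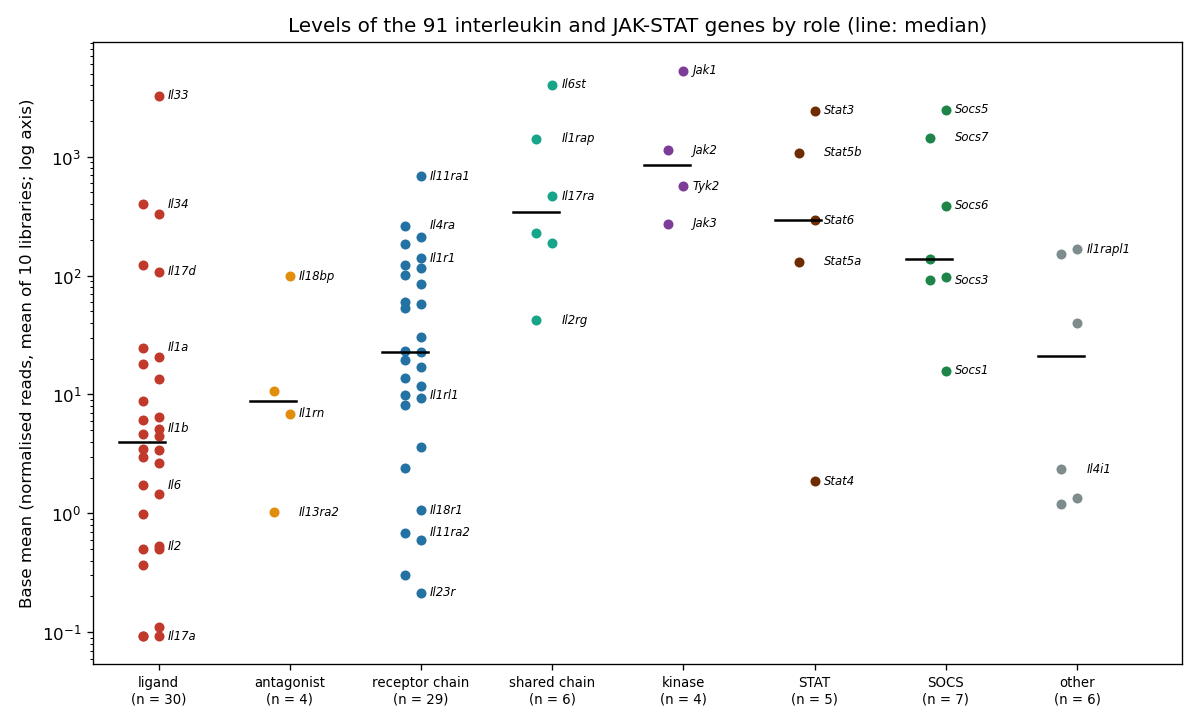
Base mean of each of the 91 genes above 0 (log axis; the authors' mean of 10 libraries, both genotypes pooled), by role, with a line at each role's median. The lowest of the 4 kinases is at 273.6 and the lowest of the 6 shared chains at 42.01, whereas the 30 ligands range from 0.0926 to 3245.1.

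**Figure D2:**
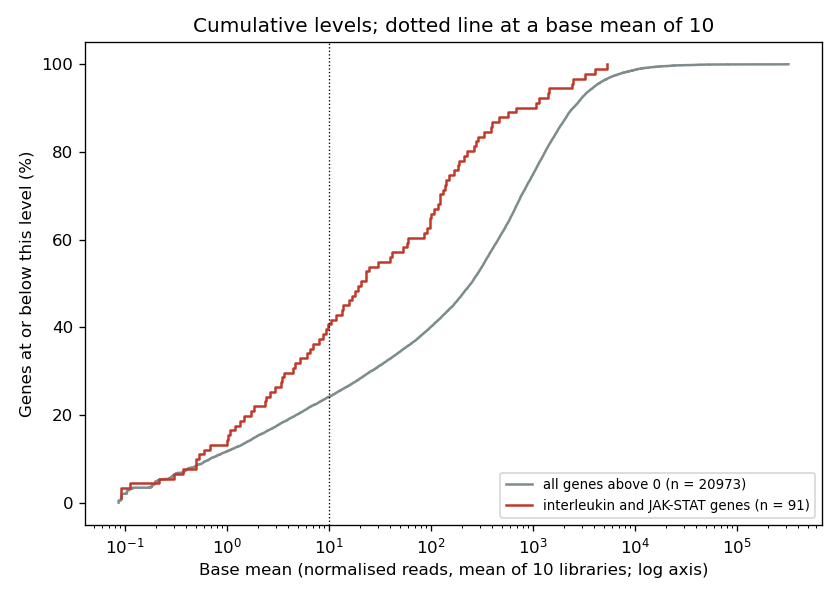
Share of genes at or below each base mean (log axis), for the 91 members and for all 20973 genes above 0. At a base mean of 10 (dotted line) the members' curve lies above that of all genes, since 59.3% of the members and 75.9% of all genes reach 10.

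Base means of different genes cannot be set against each other as levels, because a long transcript yields more reads than a short one. Each base mean was therefore also divided by the length of the gene's longest transcript (GENCODE M21, GRCm38) and scaled so that all 20399 genes with a length sum to 1000000. This relative level was available for 90 of the 91 members, the exception being Il4i1b. On this scale the median of all genes was 12.4, and that of the kinases, 25.5, was the only role median above it. The STAT genes had 11.5, the shared chains 10.4, the SOCS genes 5.29, the receptor chains 1.16 and the ligands 0.534. The counting error of a base mean, from the number of reads alone, was 9.97% at a base mean of 10, 3.15% at 100 and 0.997% at 1000. It does not include the spread between animals, so the order of neighbouring genes is a description of these pooled values.

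The kinases were led by Jak1 (chr4:101151974-101265282), which pairs with most receptors of the pathway. Its base mean was 5294.7, rank 703 of all genes. Jak2, the kinase of the growth hormone and erythropoietin receptors, had a base mean of 1138.8, and Tyk2, which serves interferon and interleukin-12 receptors, 564.7. Jak3, which binds only the common gamma chain and is best known from lymphocytes, had a base mean of 273.6. Of its exon bases, 7.5% also lie in exons of Insl3 on the same strand. Per length of the longest transcript, Jak1 was 4.77-fold above Jak2, 9.23-fold above Tyk2 and 16.0-fold above Jak3. The order of the 4 kinases was the same with merged exon lengths and with coding lengths, where Jak1 was 3.24-fold and 4.56-fold above Jak2.

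Among the transcription factors, Stat3, the main factor of IL-6 type signals, had a base mean of 2436.1 and a relative level of 59.8. Stat5b followed with a base mean of 1075.5 and a relative level of 30.6. Stat6, which serves IL-4 and IL-13, had 292.2 and 11.5, and Stat5a 130.3 and 4.88. Stat4, the factor of IL-12 in T and natural killer cells, had a base mean of 1.856 and a relative level of 0.0923. Stat3 was thus 648-fold above Stat4 per length of the longest transcript (533-fold with merged exons). Of the exon bases of Stat4, 26.7% also lie in exons of Gm28177 on the same strand.

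Stat5b, Stat5a and Stat3 lie side by side on chromosome 11 (chr11:100780731-100939594). The coding sequences of Stat5a and Stat5b are 84.7% identical, yet only 2.9% of the 100-base words of the Stat5a transcript and 5.2% of those of Stat5b occur in a transcript of another gene, so few reads of that length fit both. Per length, Stat5b was 6.27-fold above Stat5a with the longest transcript, 10.6-fold with merged exons and 8.37-fold with the coding length.

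The SOCS genes covered a wide range. Socs5 had a base mean of 2482 and a relative level of 79.2, Socs7 1444.8 and 30.5, and Socs6 385 and 9.46. By base mean, Socs4 with 137.8, Socs2 with 97.34 and Socs3 with 91.15 came next. Their relative levels, 2.97, 3.4 and 5.29, ran in the reverse order. Socs1, a strong inhibitor of interferon and gamma chain signals, was the lowest at 15.8, with a relative level of 0.805. Socs3, the feedback inhibitor that binds the IL-6 receptor chain gp130, was 15.0-fold below Socs5 per length (11.4-fold with coding lengths). Socs1, Socs2 and Socs3, known as genes that STAT factors induce, were the 3 lowest of the family by base mean and, together with Socs4, the 4 lowest per length with each of the 3 lengths. Cish, a related STAT5 target that the rule does not cover, had a base mean of 98.1.

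**Figure D3:**
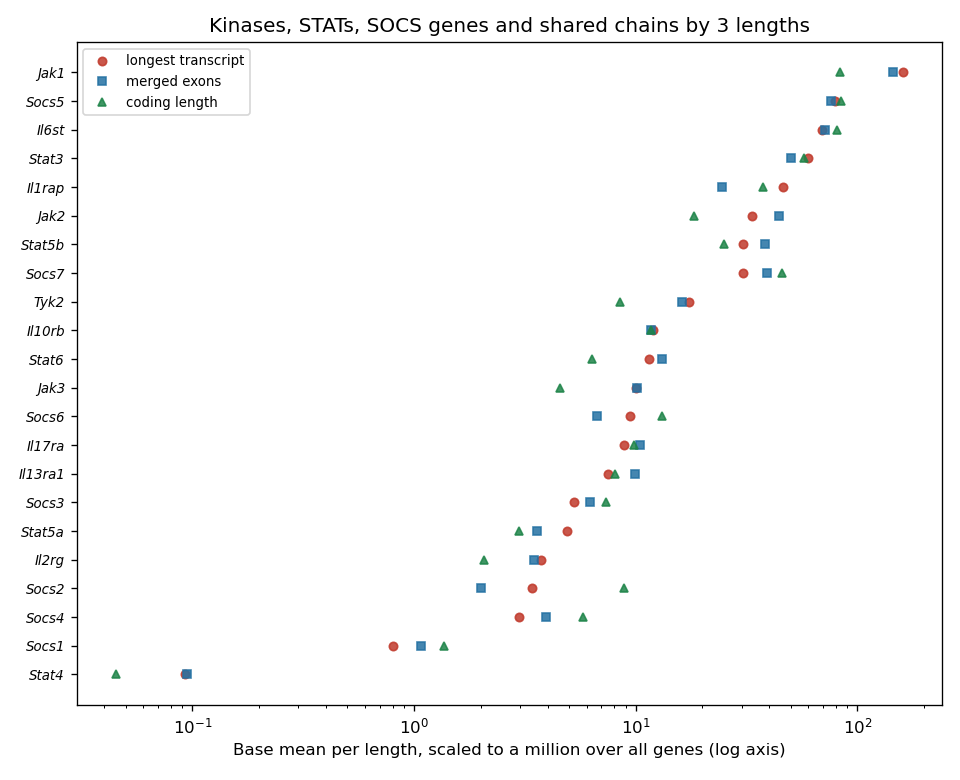
Relative level (base mean per length, scaled to a sum of 1000000 over all genes; log axis) of the kinases, STAT genes, SOCS genes and shared chains, each computed with 3 lengths (circles, longest transcript; squares, merged exons; triangles, coding length). Jak1, Socs5, Il6st and Stat3 are the 4 highest of these genes with the longest transcript, and Stat4 is the lowest with each length.

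Among the shared chains Il6st (chr13:112464070-112506860) was highest. It encodes gp130, the signalling chain for IL-6, IL-11, IL-27, LIF and CNTF, and its base mean was 4049.9, with a relative level of 69.2. The alpha chains that make cells responsive to single cytokines were lower. Il11ra1 had a base mean of 684.7 and a relative level of 39.0, and Il6ra 122.7 and 2.1. Per length Il6st was 32.9-fold above Il6ra (16.6-fold with coding lengths), and Il11ra1 was 18.5-fold above Il6ra (5.94-fold with coding lengths). Cntfr and Lifr, receptor chains outside the rule that also signal with gp130, had base means of 2624 and 2222.

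Il1rap, the accessory chain for IL-1, IL-33 and IL-36, had a base mean of 1414.8, against 140 for Il1r1, the IL-1 receptor itself. Il17ra, a chain of most IL-17 receptors, stood at 464.7. Of its partners, Il17rd had a base mean of 150.9, Il17rc 101.2, Il17rb 85.67 and Il17re 9.383. The order differed per length of the longest transcript, with relative levels of 6.51 for Il17rc, 4.93 for Il17rb, 2.7 for Il17rd and 0.473 for Il17re. With coding lengths Il17rd was the highest of these at 3.73, against 3.13 for Il17rb and 2.74 for Il17rc. Il10rb and Il10ra, the chains of the IL-10 receptor, had base means of 226 and 210.3. Their relative levels were 12 and 8.91 with the longest transcript, 11.7 and 11.8 with merged exons and 11.7 and 6.67 with coding lengths. Of the exon bases of Il10rb, 14.9% also lie in exons of Gm21970 on the same strand. Il13ra1 (187.5) and Il4ra (261.8) together form a receptor for IL-4 and IL-13. Their relative levels were 7.49 and 7.39, a difference smaller than their counting errors of 2.3% and 1.95%. With coding lengths the levels were 8.06 and 5.89. Il2rg, the common gamma chain, was the lowest shared chain at 42.01, of whose exon bases 30.5% also lie in exons of Gm20489 on the same strand.

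The other receptor chains above 10 were Il15ra at 183.4, Il12rb2 at 116.9, Il12rb1 at 59.38, Il21r at 57.97, Il3ra at 53.15, Il1rl2 at 30.59, Il27ra at 23.13, Il20ra at 22.95, Il31ra at 19.33, Il2ra at 16.99, Il7r at 13.83 and Il20rb at 11.67. For Il12rb2, 40.0% of the exon bases overlap Serbp1 on the opposite strand, and the strand setting of the counting was not given in the sources used here, so reads of the 2 genes may not have been told apart. Another 6 receptor chains lay between 1 and 10, from Il18r1 at 1.063 to Il1rl1 at 9.878, and 4 lay under 1.

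The 9 ligands above 10 were Il33, Il34, Il18, Il16, Il17d, Il1a, Il15, Il7 and Il11. Il33 (chr19:29925113-29960718), a nuclear alarmin of the IL-1 family that oligodendrocytes and astrocytes hold, had a base mean of 3245.1. Its relative level of 189 was above that of Jak1, 160, and remained above it with merged exons (221 and 144) and with coding lengths (222 and 83.7). Il34, a neuronal ligand of the microglial receptor Csf1r, had a base mean of 397 and a relative level of 32.8. Il18, whose precursor is cut by inflammasome caspases, had 328 and 54.9. Il16 had a base mean of 121.8, with 17.4% of its exon bases under genes of the opposite strand, Il17d 108.2, Il1a 24.8, Il15 20.65, Il7 17.98 and Il11 13.5. Il33 alone held 89.9% of the summed base means of the 8 IL-1 family ligands, and 3 of those 8 were listed at 0. The longest transcripts of Il33 and Il18 have 2544 and 885 bases, and ligands made up 14.8% of the members' summed base means and 29.5% of their summed relative level, so that the role with the most was the kinases (24.8%) on the first scale and the ligands on the second, where the kinases held 21.4%.

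Of the 37 ligands matched by name, 16 (43.2%) were under a base mean of 1, the 7 at 0 included. The 10 ligands of helper T cells (Il2, Il3, Il4, Il5, Il9, Il13, Il17a, Il17f, Il21 and Il22) had a summed base mean of 10.66 and none reached 10. Il4, the ligand of type 2 responses, had a base mean of 2.669, Il5 3.431 and Il21 2.958. Of the exon bases of Il5, 27.1% lie under another gene on the opposite strand. Of other cytokines, Il1b had a base mean of 5.158, Il6 1.716, Il12a 6.472 and Il23a 6.038, and Il12b, the subunit that IL-12 and IL-23 share, was at 0.5037 and Il10 was listed at 0.

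Antagonists were mostly low as well. Il18bp, which traps IL-18, had a base mean of 98.59, while Il1r2, a decoy for IL-1, had 10.6, Il1rn, the IL-1 receptor antagonist, 6.908 and Il13ra2, a decoy for IL-13, 1.024. Between 1 and 10 there were 24 members in all, with base means from 1.024 to 9.878: Il1rl1, Il17re, Il25, Il2rb, Il1rn, Il12a, Il23a, Il1b, Il1f9, Il27, Il18rap, Il17b, Il5, Il21, Il4, Il22ra1, Il4i1, Stat4, Il6, Il19, Il4i1b, Il1bos, Il18r1 and Il13ra2. The symbol rule also caught 6 rows that are not interleukins or interleukin receptors in the usual sense. Il1rapl1 and Il1rapl2 are synaptic adhesion proteins (166.7 and 40.06), Il17rd mainly restrains growth factor signals (150.9), Il4i1 encodes an amino acid oxidase and overlaps Il4i1b (2.35 and 1.335), and Il1bos is an antisense transcript of Il1b (1.196). Of the exon bases of Il4i1, 85.9% lie under Atf5 and Tbc1d17 on the opposite strand.

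Ligands and their receptors could be set side by side per kilobase of the longest transcript for 29 ligands, each with 2 receptor chains that are both members. Further chains, such as Il15ra for Il15, were not part of these pairs. In 25 of them, 5 with the ligand listed at 0, the lower of the receptor's chains was above the ligand, and this count was 24 with merged exons, with coding lengths and without length. Of the 24 ligands above 0, 20 were below the lower chain. In the other 4 the ligand was above the lower chain. Il33 stood at 1280 per kb against 1.86 for Il1rl1, its receptor ST2, a ratio of 685 (785 with merged exons and 700 with coding lengths). Il18 stood at 371 per kb against 0.256 for Il18r1, which rests on 10 reads, found in 6 of the 10 libraries. Il23a was 40.4-fold above Il23r, which had only 2 reads, and Il15 was 5.61-fold above Il2rb. Il15ra, left out of that pair, stood at 79.2 per kb, above Il15 at 10.8.

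Among the 25, Il17ra and Il17rc stood at 59.9 and 43.9 per kb, whereas Il17a was represented by 1 read. Il10ra and Il10rb stood at 60.1 and 81.0 per kb with Il10 listed at 0. Il9 and Il22 were at 0 as well, and their receptor chains Il9r (base mean 0.3033, 3 reads) and Il22ra1 (2.414) were also low, that of Il9r within counting error of the 0.298 allowed for a gene at 0. Il6ra was 19.4-fold and Il11ra1 37.9-fold above their ligands Il6 and Il11. For Il7 and Il7r the values were 3.70 and 3.91 per kb, closer than their counting errors of 7.43% and 8.48%. The order turned with the other lengths, where the relative levels were 0.624 and 0.583 with merged exons and 2.13 and 0.549 with coding lengths. The 2 genes were thus not close with coding lengths. Transcript levels of a whole tissue do not say which cells hold the ligand and which the receptor.

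**Figure D4:**
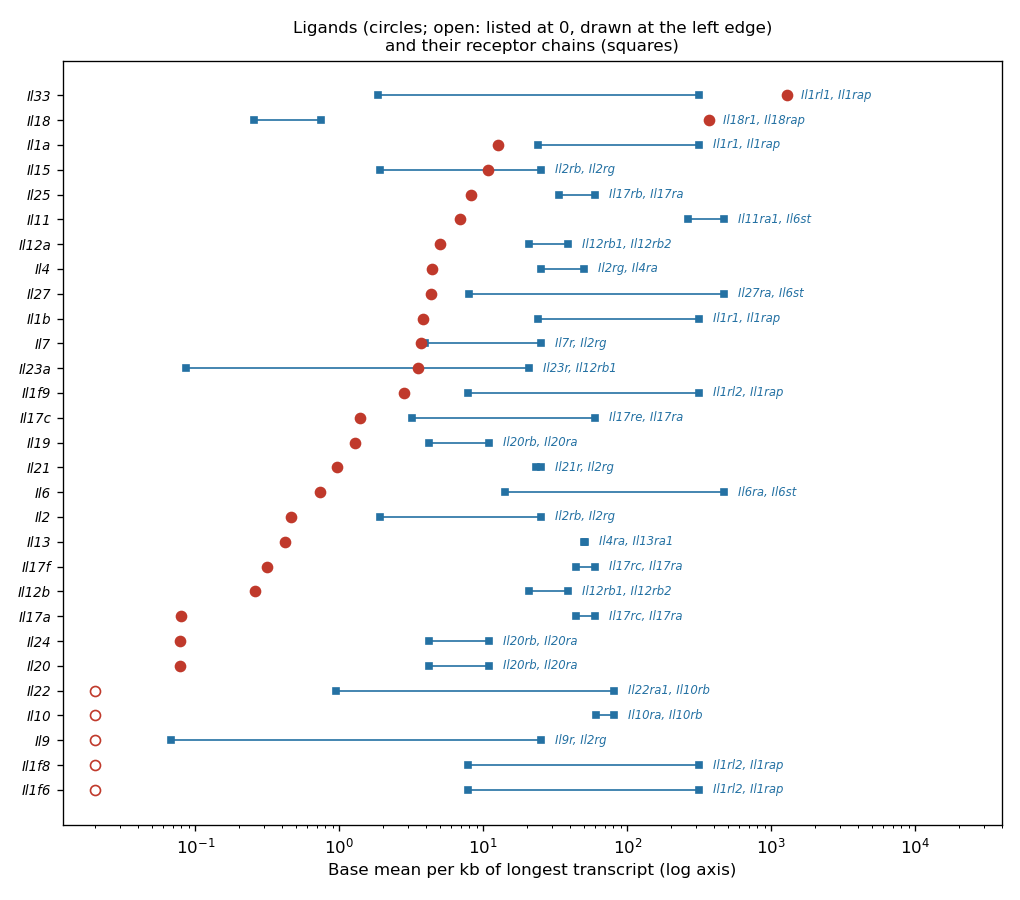
Base mean per kb of the longest transcript (log axis) of 29 ligands (circles, open where listed at 0) and of the 2 chains of a receptor of each (squares joined by a line). For Il33 and Il18 the circle lies to the right of both squares, and for Il15 and Il23a it lies between them.

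Cell type markers placed these levels in the tissue. Microglial markers ranged from 110.6 (Aif1) to 3041 (Csf1r), the lowest of the 4 motor neuron markers was Mnx1 at 37.33, and Mbp of oligodendrocytes was the highest gene of the table. Of the 11 markers of T, B, natural killer and mast cells, 1 reached 10 (Cd79a at 10.6). Cd3e had a base mean of 2.73, Cd3d 1.19, Cd4 5.57 and Cd8a 1.31. The defining neutrophil marker Ly6g stood at 0.58, beside 36.1 for S100a8 and 61.4 for S100a9. Endothelial markers ranged from 630.6 (Pecam1) to 2253 (Flt1), and meningeal fibroblast markers from 67.28 (Lum) to 655.2 (Dcn). Markers of tissues other than cord were also above 10, with Acta1 and Ckm of skeletal muscle at 251.1 and 107.5 and Alb of hepatocytes at 46.76. Where their reads came from was not tested. The part of these cell types in the levels of the cytokines and receptors was not tested, and in bulk tissue fewer cells of a type and less RNA per cell cannot be told apart. Haemoglobin genes Hbb-bs and Hba-a1 were listed at 0. Reads that fit several places in the genome were not counted, so these values do not say whether blood was present.

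Of 48 other genes of the pathway, 41 had a base mean of at least 10 and 7 were below, with a median of 265.5. The phosphatase gene Ptpn11 was highest at 7084, and Stat2, a factor of type I interferon signals, stood at 769. Among those below 10 were the ligand genes Cntf, Osm, Csf2, Csf3, Epo and Tslp. Ligands outside the interleukins were not uniformly low, since Csf1, a ligand of Csf1r, had a base mean of 1580.

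The lowest base means also showed how many reads they rest on. The 10 most frequent values above 0 in the table were each shared by 50 to 103 genes, and the next by 19. Each equals what a single read is worth in a library, which is 1 divided by 10 times its size factor, so the size factors of the 10 libraries were between 0.84 and 1.15. All 2128 genes with a base mean under 0.7 could be written as whole reads in these libraries in exactly 1 way. The libraries could not be tied to animals or genotypes by this route and are left unnamed. For 16 members the reads were found in 1 way.

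Il17a, Il20 and Il24 had 1 read each, all in the same unnamed library, and Il3 had 1 read in another. A count of 1 has an exact Poisson 95% interval of 0.0253 to 5.57 reads, or up to 0.553 in base mean. The 9 genes listed at 0 allow a base mean of up to 0.298, which is 3 reads over the 10 libraries. Il23r had 2 reads, Il9r 3, Il17f 4, and Il13, Il12b and Il2 5 each. Of the 5 reads of Il12b, 3 came from a single library and the others from 2 more, whereas the 4 reads of Il17f came from 4 libraries. The base means of Il2, Il12b and Il13 (0.5283, 0.5037 and 0.5022) thus differed by less than counting error, since 5 reads have an interval of 1.62 to 11.7. These intervals and limits cover counting error only.

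Il5ra had 6 reads in 5 libraries, Il17c 10 in 7, Il13ra2 10 in 5 and Il18r1 10 in 6. For Il13ra2 and Il18r1 the highest library held 4 of the 10 reads. Il1bos had 12 reads in 8 libraries. Among lineage markers, Mcpt4 of mast cells had 2 reads, Cpa3 4, Ncr1 of natural killer cells 8 and Cd3d of T cells 12. Since the libraries are unnamed, these reads carry no comparison between genotypes.

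**Figure D5:**
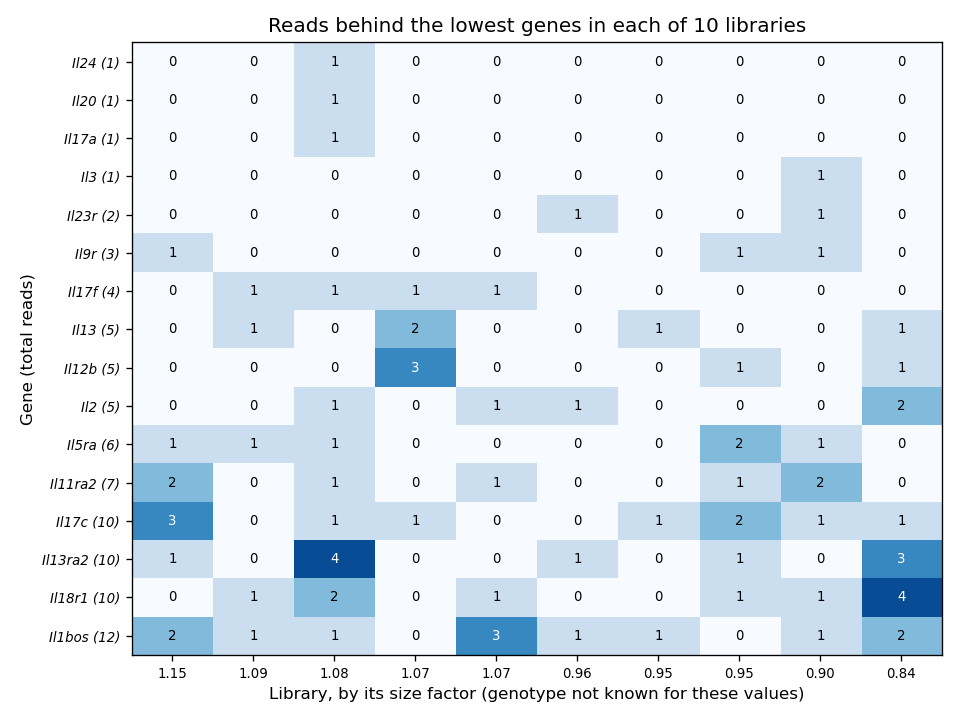
Reads behind the 16 lowest genes that could be resolved in each of the 10 unnamed libraries, ordered by size factor from 1.15 to 0.84. No gene has more than 4 reads in a library, and Il17a, Il20 and Il24 each have their only read in the library of size factor 1.08.

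Il11ra2 was another of these genes, with 7 reads in 5 libraries and a base mean of 0.6871, against 684.7 for Il11ra1. The 2 genes are near copies on chromosome 4 (chr4:41760443-41769473 and chr4:42655275-42665763). Their coding sequences have 1296 bases each and differ at 13, with up to 356 identical bases in a row. All 100-base words of the Il11ra2 transcript also occur in Il11ra1 or Gm13305, as do 42.7% of those of Il11ra1. The authors counted only reads with a single place in the genome, so the value of Il11ra2 is uncertain, and that of Il11ra1 leaves out any read that fits both. Gm13305 was listed at 0. Within the coding sequence, only differing bases tell Il11ra1 from Il11ra2. They do not mark a read as that of Il11ra2, since no 100-base word of Il11ra2 was free of a match in Il11ra1 or Gm13305. The stretch with most differences, coding bases 988 to 1062, is shown with its 3 differing bases in capitals. Positions are counted from the start codon in GENCODE M21 transcripts.
Il11ra1: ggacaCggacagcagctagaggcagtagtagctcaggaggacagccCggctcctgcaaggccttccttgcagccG
Il11ra2: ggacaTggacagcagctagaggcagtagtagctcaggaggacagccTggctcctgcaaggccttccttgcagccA

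Some members lay close to each other. Genes between them that are not members were not considered, and no such share is given for other genes. With gaps of at most 100 kb, 43 of the 100 genes by name formed 15 clusters, some with levels far apart and some with levels close together. The IL-1 receptor cluster Il1r2, Il1r1, Il1rl2, Il1rl1, Il18r1 and Il18rap (chr1:40084692-40551707) ran from 1.063 to 140 in base mean. Il6st and Il31ra on chromosome 13 stood at 4050 and 19.33, and Il12rb2 and Il23r on chromosome 6 at 116.9 and 0.2156. Il4, Il13 and Il5 (chr11:53612460-53725103) were all low, from 0.5022 to 3.431, and of the 6 genes from Il1f8 to Il1rn on chromosome 2, 4 were listed at 0 and the highest was Il1rn at 6.908.

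STAT dimers bind the letters TTCNNNGAA, a palindrome that reads the same on both strands, and STAT6 favours a spacer of 4 letters in place of 3. Promoters from RefSeq (GRCm38.p6), 250 bases before to 50 after a start, were found for 73 of the 91 members, 90 promoters in all. TTCNNNGAA was present in 11 of these (12.2%), against 8.30% of all 32851 promoters of the table. The form with a spacer of 4 was present in 17 promoters of 14 members (18.9%), against 6.95% of all. These are shares of promoters, so a gene with several starts is counted more than once. Whether the members differ from other genes was not tested, and base composition was not considered. In 4 members with a base mean of at least 50 a site of either spacer lay before the start. They are shown with the site in capitals and 10 bases on each side, on the strand of the gene, as the stretches that carry the match.
Il12rb2: gttcccttttTTCTCAGAAccgcactaag
Socs3: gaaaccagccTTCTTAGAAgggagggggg
Il18: tttgagacagTTCCCCAGAAtgcaaatagg
Il33: ctctgccaagTTCTGGGGAAtaaaaagccc

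The site began 123 bases before the start used by the promoter table in Il12rb2 (chr6:67376293-67376321, minus strand), 154 in Socs3 (chr11:117969502-117969530, minus strand), 46 in Il18 (chr9:50554644-50554673, plus strand) and 36 in Il33 (chr19:29925067-29925096, plus strand). For Il12rb2 that start lies inside the gene, whose RefSeq span (chr6:67285986-67376293) ends at the edge of the stretch. None of the 4 stretches overlapped an exon of a member in GENCODE M21. The stretch of Socs3 lies within the RefSeq span of the gene (chr11:117966079-117970336), between exons, because other transcripts start further upstream. A match of letters is a description and no evidence of binding. Levels with and without a match were not compared: Il33 and Il18 were among the highest ligands, and Il12rb2 and Socs3 were at 116.9 and 91.15.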

How the data were processed

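Libraries were made with a stranded mRNA kit and sequenced as paired reads. According to the methods and the submitters' processing notes, the authors trimmed reads with Fastp, aligned them to mm10 with HISAT2 2.1.0, counted uniquely mapped reads with featureCounts 2.0.2 and compared genotypes with DESeq2; the annotation and strand setting are not given in the sources used here. The deposited base mean is a normalised signal, the authors' mean of counts over size factors in 10 libraries. The other 5 columns (log2 fold change, its standard error, Wald statistic, p-value and adjusted p-value) hold the authors' own comparison and were not used, so no test was made.

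Ranks, levels per length, reads behind low values and promoter matches were computed with Python (numpy, scipy, biopython). Whole reads were sought within the rounding of the file, and the search was tested on simulated data. Symbols matched RefSeq for 99.2% and GENCODE M21 for 96.5% of rows. Coding sequences replaced proteins for identity. Members with a base mean of at least 10 are given by value, those from 1 to 10 by name and those below by range, with the main cytokines by value; a few others were named after their values were seen. The members and lists were chosen with earlier results of these data known. The ligand and receptor pairs, cytokine families and clusters were listed after the values were seen. Alternatives concerned limits, lengths, motif spacers and rounding.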

Additional observations from a re-analysis of the deposited data

How the results depend on the processing

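Of 21 alternatives, 18 left the value within its limits and 3 moved it. The share of ligands in the members' summed level was 14.8% by base mean and 29.5% per length, which put it above the kinases (24.8% and 21.4%). Per length the shared chains went from 21.8% to 14.3%, the antagonists from 0.4% to 0.697% and the other genes caught by the rule from 1.24% to 0.712%. These shifts were counted among the 18 because they lay within binomial intervals over the 91 members. Such an interval is made for counts of genes and not for shares of a sum. It therefore does not show that these shares are stable. Promoters of members with a STAT site numbered 11 with a spacer of 3, 17 with a spacer of 4 and 27 with either. Of the rest, 62 and 46 members passed minimums of 5 and 20 in place of 54 at 10, the median percentile was 25.4 among genes of at least 1 and 28.2 without Il1rapl1, Il1rapl2 and Il4i1, and 17 or 18 of the 20 highest members per length were also highest under each other length or without length. No paired analysis was possible because the base mean pools all libraries, and no replicate could be left out for the same reason. Depth limits the genes under a base mean of about 1, which rest on at most 10 reads in 10 libraries.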
